A study of Mus musculus with 60 samples.

Results

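AMPA receptors are the glutamate-gated channels that carry most fast excitatory transmission, and 10 genes of the receptor complex were followed through the hippocampus of wild-type (WT) and R6/1 mice. The genes were chosen by name, with earlier results of these data known. They were the 4 pore-forming subunits Gria1, Gria2, Gria3 and Gria4, and the cornichons Cnih2 and Cnih3. With them were 4 of the transmembrane AMPA receptor regulatory proteins (TARPs), Cacng2, Cacng3, Cacng4 and Cacng8. All 10 are among the 24508 gene symbols of the expression table. Both groups were 30-week-old mice of a CBA x C57BL/6 cross. R6/1 mice, a model of Huntington's disease, carry a transgene made of a 5' piece of human HTT with a long CAG tract, under the human promoter and beside both mouse Htt alleles; WT mice carry none. Messenger RNA was sequenced from 9 independent WT and 9 independent R6/1 samples of whole hippocampal tissue, and lamin B1 ChIP-seq from 3 pools of 5 mice per genotype gave 1 list of lamina-associated domains per genotype.

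An AMPA receptor is an assembly of pore-forming subunits GluA1 to GluA4, encoded by Gria1 to Gria4, surrounded by auxiliary proteins. Receptors that contain GluA2 edited at the Q/R site of the pore pass little calcium, whereas receptors without it are permeable to calcium. TARPs anchor receptors at the postsynaptic density and slow their closing, and Cacng8 encodes TARP gamma-8, the form known for its abundance in hippocampus. Cornichons help receptors leave the endoplasmic reticulum and also slow their closing, and CNIH2 is known as a partner of receptors in hippocampal pyramidal neurons.

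The libraries held between 12299434 and 16736544 reads on genes. In the table values are in RPKM, reads per kilobase of gene scaled for depth by the authors. Neuronal genes of the hippocampus were present in every library, among them Prox1 of dentate granule cells at 8.77 to 18.5 RPKM and Wfs1 of CA1 pyramidal neurons at 12.1 to 62.5 RPKM. Choroid plexus RNA varied widely within both genotypes, with a summed level of 7 markers from 25.8 to 1074 RPKM in WT and from 38.7 to 1742 RPKM in R6/1. Without the 5 libraries above 900 RPKM, a limit chosen after the data were seen, as many members were called lower and higher as are given below. Xist lay between 0.00369 and 0.0365 RPKM in all 18 libraries, so libraries with and without Xist are not mixed in the values of Gria3, an X-linked gene.

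In WT hippocampus the members spanned a wide range of levels per kilobase. Cnih2 was highest with a mean of 239.5 ± 22.1 RPKM, followed by Gria1 at 184 ± 18.4 RPKM and Gria2 at 109 ± 8.13 RPKM (SD, n = 9 throughout). Cacng8 followed at 97.9 ± 11.7 RPKM, Gria3 at 42.0 ± 3.01 RPKM, Cacng3 at 36.6 ± 7.10 RPKM and Cnih3 at 22.5 ± 2.81 RPKM. Cacng2, which encodes the founding TARP stargazin, stood at 12.6 ± 0.987 RPKM, Gria4 at 12.1 ± 1.10 RPKM and Cacng4 at 6.76 ± 0.710 RPKM. The ranges of neighbours in this order overlapped for Gria2 and Cacng8, for Gria3 and Cacng3, and for Cacng2 and Gria4; the other neighbours did not overlap. Gria1 exceeded 98.2% of tested genes and Cnih2 98.9%, whereas Cacng4 exceeded 44.0%. In R6/1 the first 4 places were unchanged, and Cnih3 moved from the seventh to the fifth place, where its range overlapped that of Gria3 and, behind it, that of Gria3 overlapped Cacng3.

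**Figure D1:**
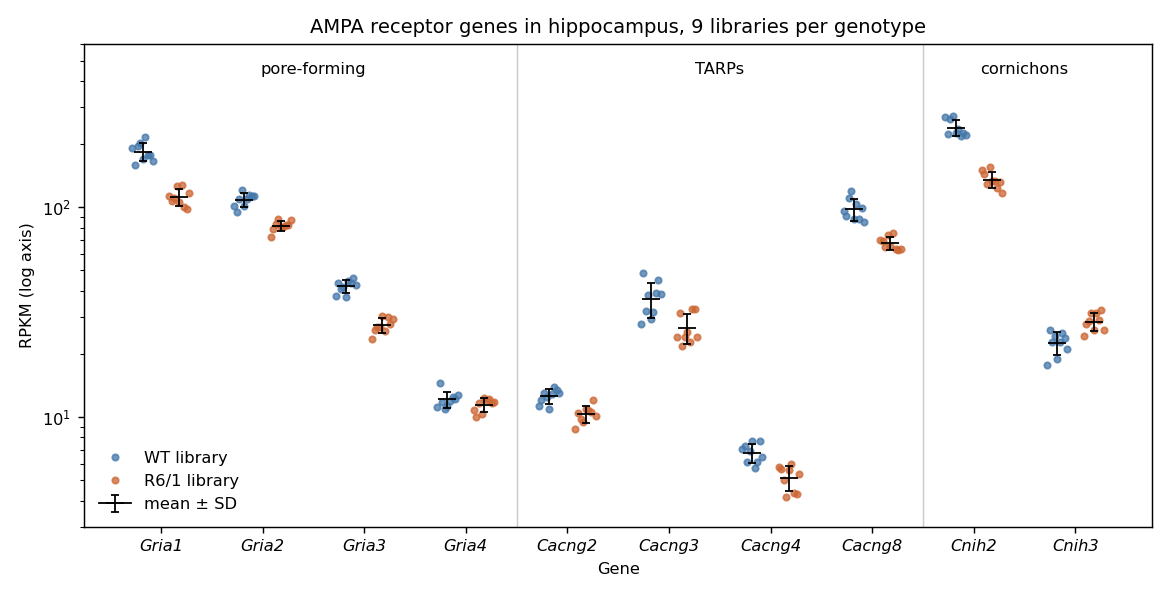
Expression of the 10 members in RPKM on a log axis, with 1 point per library (9 WT in blue, 9 R6/1 in orange) and bars for the mean ± SD. The R6/1 points of Gria1, Gria2, Gria3, Cacng8 and Cnih2 lie below all WT points, those of Gria4 overlap them with 3 below all WT points, and 7 of 9 R6/1 points of Cnih3 lie above all WT points.

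Whether the receptor complex differs between genotypes was tested by limma on log2(RPKM + 0.5), across the 14446 genes whose mean reached 0.5 RPKM. Of the 10 members, 8 fell and 1 rose in R6/1 (limma, adjusted p below 0.05). Of all tested genes 23.5% were called lower and 24.8% higher, 48.3% in either direction. All 10 members passed the filter, the lowest library value among them being 4.17 RPKM. The median log2 fold change was -0.43 over the members and 0.00 over all tested genes. For 5 members, Gria1, Gria2, Gria3, Cacng8 and Cnih2, every R6/1 library lay below every WT library, which held for 6.38% of tested genes; no member had all R6/1 libraries above all WT libraries, which held for 5.5%. In the authors' deposited table the same 8 members are lower and Cnih3 is higher, at an adjusted p under 0.05. Of the 18395 genes with an adjusted p there, 20.4% pass as lower and 20% as higher. That table rests on the same libraries.

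Among the pore-forming subunits 3 of 4 fell. Gria1, which encodes the GluA1 subunit inserted at synapses during long-term potentiation, ranged in WT from 159.8 to 216 RPKM with a median of 178 RPKM. Its R6/1 libraries ranged from 98.1 to 128 RPKM with a median of 110.2 RPKM. The highest R6/1 library was thus below the lowest WT library, and the mean was 39.4% lower. The log2 fold change was -0.72 (SE 0.061, limma adjusted p 1.11e-08).

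Gria2, the subunit that sets calcium permeability, ranged from 95.02 to 121 RPKM in WT, with a median of 109 RPKM. In R6/1 it ranged from 71.8 to 88.1 RPKM, with a median of 82.1 RPKM. The genotypes did not overlap, and Gria2 fell by 0.41 on the log2 scale (SE 0.045; limma, adjusted p 4.01e-07). Gria3 ranged from 37.2 to 46.2 RPKM in WT, with a median of 42.8 RPKM, and from 23.5 to 30.3 RPKM in R6/1, with a median of 26.9 RPKM. It encodes GluA3, which pairs with GluA2 in many receptors. Its genotypes did not overlap either, and its log2 fold change was -0.61 (SE 0.050, limma adjusted p 6.97e-09).

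Gria4, which encodes the subunit known from interneurons and from the developing hippocampus, did not pass the test. Its WT libraries ranged from 10.9 to 14.6 RPKM with a median of 11.9 RPKM, and its R6/1 libraries from 10.1 to 12.4 RPKM with a median of 11.7 RPKM. The ranges overlapped, with 3 R6/1 libraries below all WT libraries. The log2 difference of R6/1 minus WT was -0.08 with a 95% interval from -0.19 to 0.03 (limma adjusted p 0.217).

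All 4 TARP members fell, whereas the TARPs Cacng5 and Cacng7, counted among the partner genes below, were not called. Cacng8 ranged from 84.9 to 119.6 RPKM in WT, with a median of 95.9 RPKM, and from 62.3 to 75.7 RPKM in R6/1, with a median of 65.1 RPKM. Its genotypes did not overlap, and it fell by 0.53 on the log2 scale (SE 0.061; limma, adjusted p 7.50e-07). The geometric mean ratio of Cacng8 to Cacng3 was 2.67 in WT and 2.53 in R6/1.

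The other TARP members overlapped between genotypes. Cacng3 ranged from 27.8 to 48.6 RPKM in WT, with a median of 38.2 RPKM, and from 21.9 to 32.7 RPKM in R6/1, with a median of 24.2 RPKM. Relative to its mean it had the widest spread among the TARP members in both genotypes. Of its R6/1 libraries 6 lay below all WT libraries, and the log2 fold change was -0.45 (SE 0.107, limma adjusted p 0.00162). Cacng2 ranged from 10.9 to 13.96 RPKM in WT and from 8.77 to 12.1 RPKM in R6/1, with medians of 12.9 and 10.5 RPKM. Stargazin mRNA fell by 0.27 on the log2 scale (SE 0.056; limma, adjusted p 0.000463), with 8 R6/1 libraries below all WT libraries. Cacng4, which encodes TARP gamma-4, ranged from 5.70 to 7.67 RPKM in WT and from 4.17 to 5.98 RPKM in R6/1, with medians of 6.88 and 5.38 RPKM. It rests on 59 to 119 reads per library, and its log2 fold change was -0.37 (SE 0.075, limma adjusted p 0.000395).

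The cornichons Cnih2 and Cnih3 changed in opposite directions. Cnih2 ranged from 218 to 273 RPKM in WT, with a median of 227 RPKM, and from 116.9 to 155 RPKM in R6/1, with a median of 133 RPKM. The genotypes did not overlap, and Cnih2 fell by 0.82 on the log2 scale (SE 0.058; limma, adjusted p 9.08e-10). Cnih3 ranged from 17.7 to 26.0 RPKM in WT, with a median of 22.8 RPKM, and from 24.4 to 32.3 RPKM in R6/1, with a median of 28.7 RPKM. The ranges overlapped at their edges, with 7 R6/1 libraries above all WT libraries. The log2 fold change of Cnih3 was 0.34 (SE 0.071, limma adjusted p 0.000541).

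The promoters of the cornichons are shown because these paralogs moved apart. RefSeq promoters (assembly GRCm38.p6) were matched by symbol for 7 of the 10 members, and the 250 bases before the gene start are printed with motif matches in capitals. Searched on both strands were the GC box GGGCGG, the CCAAT box CCAAT, the TATA box TATAAA, the cyclic AMP response element TGACGTCA and its core TGACG, which lies inside the full element. The window of Cnih2 lies at chr19:5098522-5098771 on the minus strand and that of Cnih3 at chr1:181352378-181352627 on the plus strand.
Cnih2: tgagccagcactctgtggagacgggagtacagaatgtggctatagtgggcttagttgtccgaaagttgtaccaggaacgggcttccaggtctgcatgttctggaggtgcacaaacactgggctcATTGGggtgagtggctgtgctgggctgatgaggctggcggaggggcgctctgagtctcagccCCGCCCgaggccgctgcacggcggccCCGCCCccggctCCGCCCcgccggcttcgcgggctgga
Cnih3: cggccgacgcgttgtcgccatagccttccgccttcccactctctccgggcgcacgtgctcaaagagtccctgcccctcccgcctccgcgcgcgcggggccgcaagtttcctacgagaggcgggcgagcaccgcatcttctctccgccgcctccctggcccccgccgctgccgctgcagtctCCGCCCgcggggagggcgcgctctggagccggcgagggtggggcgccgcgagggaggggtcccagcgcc
The Cnih2 window held 3 GC boxes and 1 CCAAT box, and the Cnih3 window 1 GC box and 0 CCAAT boxes. At least 1 GC box was found in 33.0% and at least 1 CCAAT box in 33.8% of 32536 promoter windows of the same length. Holding either motif thus does not set these windows apart. How many windows hold 3 GC boxes was not counted. The GC content was 65.6% for Cnih2 and 76% for Cnih3, with a median of 52.4% over all windows, and the windows held 17 and 36 CpG dinucleotides against a median of 6. The remaining motifs had 0 matches in both.

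**Figure D2:**
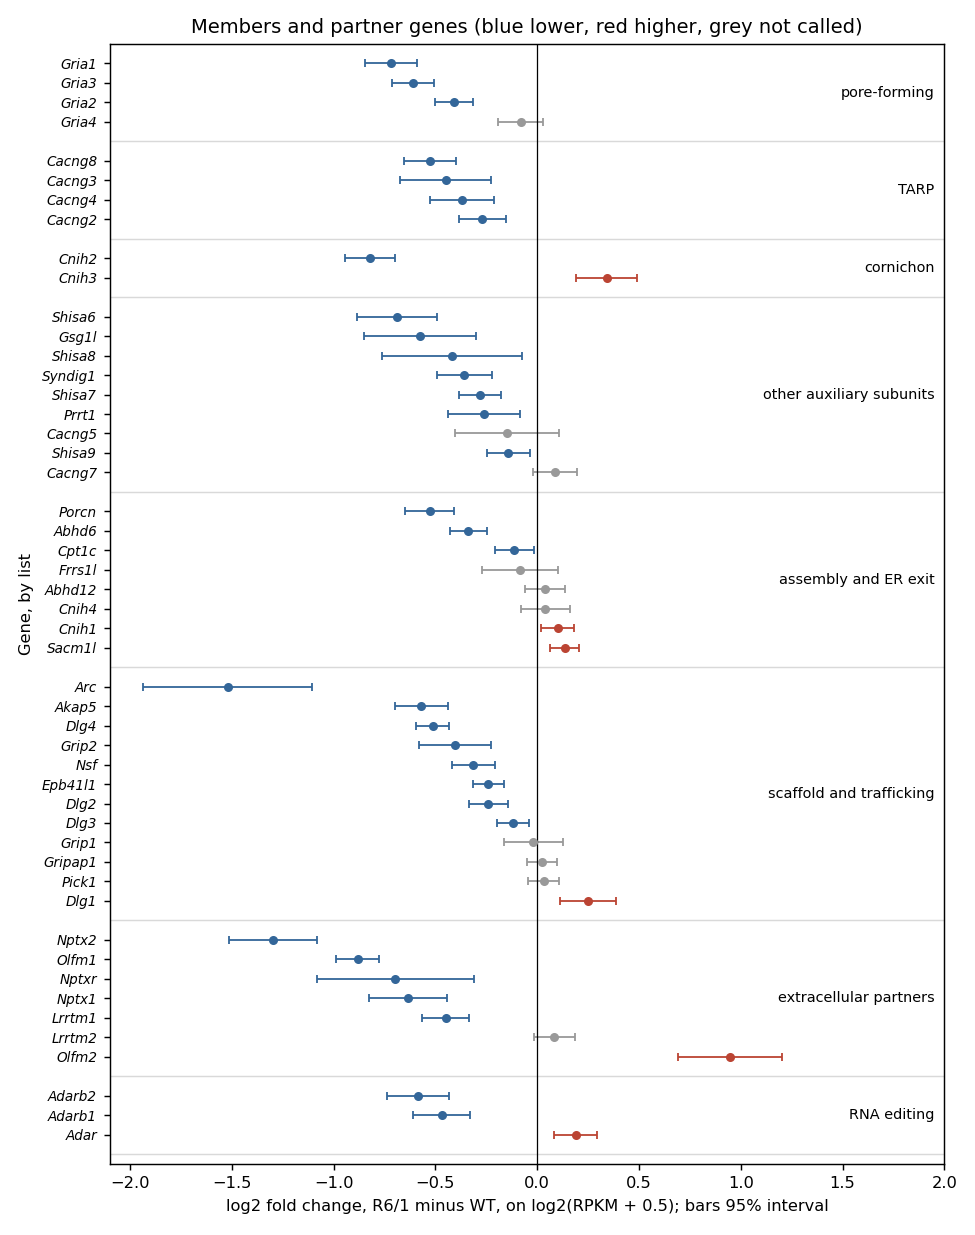
Log2 fold change of R6/1 minus WT on log2(RPKM + 0.5) for the 10 members and 39 partner genes, with 95% intervals from limma; blue marks lower, red higher and grey not called. All members but Gria4 and Cnih3 lie left of 0 with intervals that exclude it, and Olfm2 at 0.95 and Arc at -1.52 are the extremes among the partners.

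Markers of cell classes moved with genotype in the same libraries, where 23.5% of all tested genes were called lower and 24.8% higher. Among pan-neuronal genes 8 of 10 fell and 1, Stmn2, rose, with a median log2 fold change of -0.26; their summed level was 2536 to 3023 RPKM in WT and 2143 to 2286 RPKM in R6/1, with no overlap. Dentate granule markers fell in 8 of 8 cases, from a sum of 110.4 to 167 RPKM in WT to 65.8 to 75.7 RPKM in R6/1. Of the CA1 pyramidal markers 5 of 7 fell and 1 rose, with sums of 201 to 292 RPKM and 164 to 184 RPKM. Of the CA3 pyramidal markers 4 of 6 fell, with sums of 224 to 410.4 RPKM and 163 to 218 RPKM. Of the inhibitory neuron markers 6 of 9 fell, from a sum of 394 to 492 RPKM to one of 239 to 306 RPKM. The neuropeptide gene Sst had the highest WT level of that list, with means of 195.5 RPKM in WT and 86.75 RPKM in R6/1. Slc32a1, Lhx6 and Dlx1 of the same list were not called (log2 differences 0.03, -0.14 and -0.02).

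Glial marker lists differed in how many members were called, against 23.5% lower among all tested genes. Among astrocyte markers 6 of 7 fell, with sums of 734 to 952 RPKM in WT and 627 to 801 RPKM in R6/1, and among oligodendrocyte markers 4 of 6 fell, with sums of 963 to 1231 RPKM and 588 to 1020 RPKM. Microglia markers fell in 3 of 6 cases (sums of 94.4 to 138 RPKM and 76.8 to 122 RPKM). Oligodendrocyte precursor markers fell in 1 of 5 cases (71.6 to 90.1 RPKM and 63.4 to 91.9 RPKM) and endothelial markers in 1 of 5 (38.8 to 73.3 RPKM and 47.4 to 71.6 RPKM), and 0 of 7 choroid plexus markers were called. Striatal projection neuron markers, a check for neighbouring tissue, fell in 3 of 6 tested cases, with sums of 34.5 to 45.5 RPKM and 18.3 to 23.7 RPKM. No marker that was measured was at 0 in any library. In bulk tissue fewer cells of a type and less RNA per cell cannot be told apart, and the part of these markers in the members' changes was not tested beyond the following fit.

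With the mean log2 level of the pan-neuronal genes as a covariate, chosen after the data were seen, 4 members stayed lower and 0 higher in limma. Gria1 (log2 fold change -0.54, limma adjusted p 0.0258), Gria2 (-0.50, 0.00906), Gria3 (-0.59, 0.00718) and Cnih2 (-0.56, 0.0120) passed. Cacng8 (-0.29, adjusted p 0.204), Cacng3 (-0.63, adjusted p 0.131), Cacng2 (-0.28, adjusted p 0.206), Cacng4 (-0.34, adjusted p 0.268) and Cnih3 (0.25, adjusted p 0.402) did not pass in limma. Without the covariate their log2 fold changes were, in the same order, -0.53, -0.45, -0.27, -0.37 and 0.34. The loss of a call thus did not always come with a smaller fold change. The summed level of the covariate's genes does not overlap between genotypes. With the covariate 1105 genes were called higher and 943 lower of 14446, against 3586 and 3394 without it.

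Whether the subunits changed unequally was tested by the ratio of 2 members, each taken as RPKM + 0.5, within each library. Depth scaling cancels in such a ratio except for the effect of the added 0.5. Of 10 ratios, several of which share a gene, 8 differed between genotypes by a two-sided exact permutation test over all ways to choose 9 of 18 libraries, adjusted over the 10. The ratio of Gria1 to Gria2 was 1.69 in WT and 1.36 in R6/1 (geometric means), with log2 values from 0.55 to 0.98 in WT and from 0.25 to 0.66 in R6/1. Its log2 difference was -0.31 (SE 0.066, exact permutation adjusted p 0.00113), so Gria1 RNA fell more than Gria2 RNA, with overlap between genotypes. The ratio of Gria2 to Gria3 went from 2.57 to 2.95, a log2 difference of 0.20 (SE 0.051, exact permutation adjusted p 0.00165). Gria1 to Gria3 did not differ beyond the spread, at 4.33 in WT and 4.02 in R6/1 (log2 difference -0.11, SE 0.090, exact permutation adjusted p 0.267).

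Relative to Gria4 each of the other subunits fell. Gria3 to Gria4 went from 3.37 to 2.33, with log2 values from 1.55 to 1.88 in WT and from 1.06 to 1.34 in R6/1, and the genotypes did not overlap (log2 difference -0.53, exact permutation adjusted p 0.000206). Gria1 to Gria4 went from 14.6 to 9.38 (log2 difference -0.64, exact permutation adjusted p 0.000274) and Gria2 to Gria4 from 8.65 to 6.88 (log2 difference -0.33, exact permutation adjusted p 0.00182).

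Among the auxiliary proteins the ratio of Cnih2 to Cnih3 changed most. It was 10.5 in WT and 4.68 in R6/1, with log2 values from 3.08 to 3.88 in WT and from 2.02 to 2.60 in R6/1 and no overlap (log2 difference -1.16, SE 0.104, exact permutation adjusted p 0.000206, from the smallest p that 9 against 9 allow, 4.11e-05). Cacng8 to Cacng2 went from 7.51 to 6.28 (log2 difference -0.26, exact permutation adjusted p 0.0141). Cacng8 to Gria1 rose from 0.532 to 0.607 (log2 difference 0.19, exact permutation adjusted p 0.00171), so the RNA of the main hippocampal TARP fell less than that of Gria1. Cacng8 to Cacng3 did not differ beyond the spread (log2 difference -0.08, SE 0.147, exact permutation adjusted p 0.588).

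**Figure D3:**
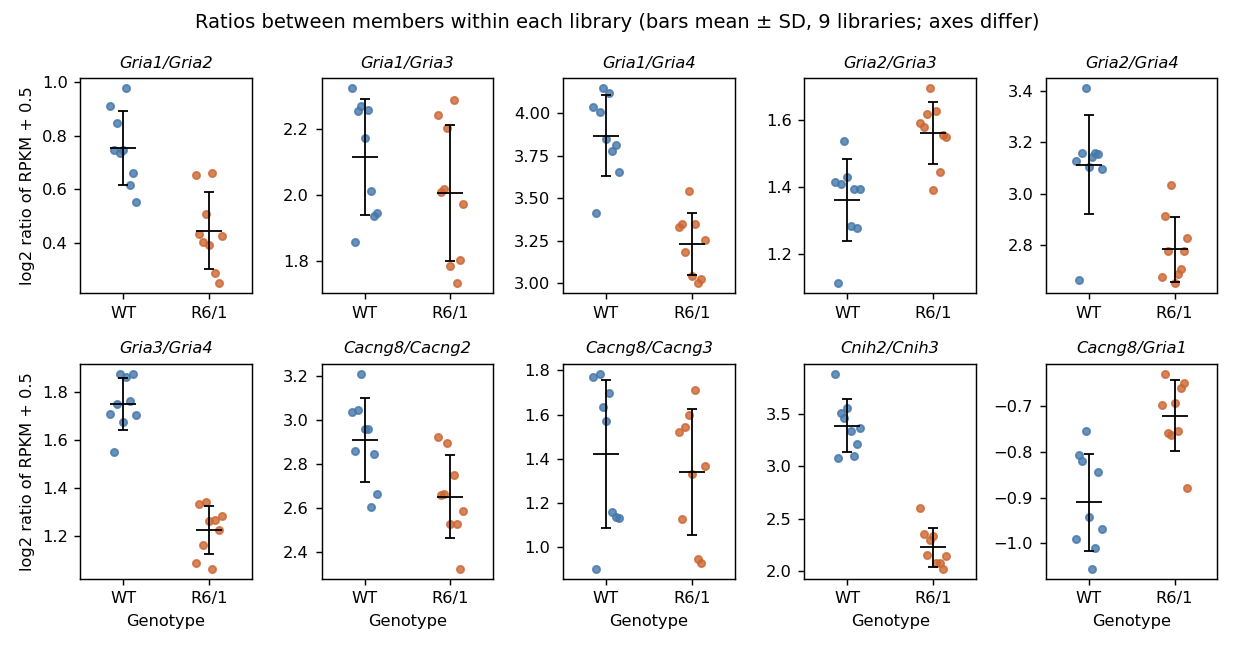
Log2 ratio of RPKM + 0.5 between pairs of members in each library, with 1 point per library, bars for the mean ± SD, and an axis of its own for each pair. Cnih2/Cnih3 and Gria3/Gria4 are the pairs without overlap between genotypes, and Gria1/Gria3 and Cacng8/Cacng3 are those that did not differ beyond the spread.

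The make-up of the receptor RNA is given by sums and shares. The summed RPKM of Gria1 to Gria4 was 347 ± 23.0 in WT (313 to 382) and 232 ± 12.2 in R6/1 (219.6 to 251), with no overlap. Of that sum Gria1 made up 53.0% ± 2.46 in WT and 48.1% ± 2.69 in R6/1, Gria2 31.4% ± 1.67 and 35.2% ± 1.58, Gria3 12.1% ± 1.02 and 11.8% ± 1.08, and Gria4 3.52% ± 0.503 and 4.94% ± 0.423 (SD, n = 9 each). All these shares overlapped between genotypes.

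The summed RNA of the TARP members Cacng2, Cacng3, Cacng4 and Cacng8 went from 154 ± 13.2 RPKM to 109.5 ± 5.03 RPKM, without overlap. That sum stood at 44.4 ± 3.43 RPKM per 100 RPKM of summed Gria RNA in WT and 47.3 ± 3.41 in R6/1, with overlap. It leaves out the TARPs Cacng7, with means of 75.1 RPKM in WT and 79.7 RPKM in R6/1, and Cacng5, with 4.47 and 3.9 RPKM. Of the cornichon RNA, Cnih3 made up 8.64% ± 1.34 in WT (6.19% to 10.4%) and 17.5% ± 1.81 in R6/1 (13.97% to 19.6%), with no overlap. Shares and sums are given as descriptions of RNA and say nothing of the proteins, of splice forms or of RNA editing, which gene-level values do not resolve.

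**Figure D4:**
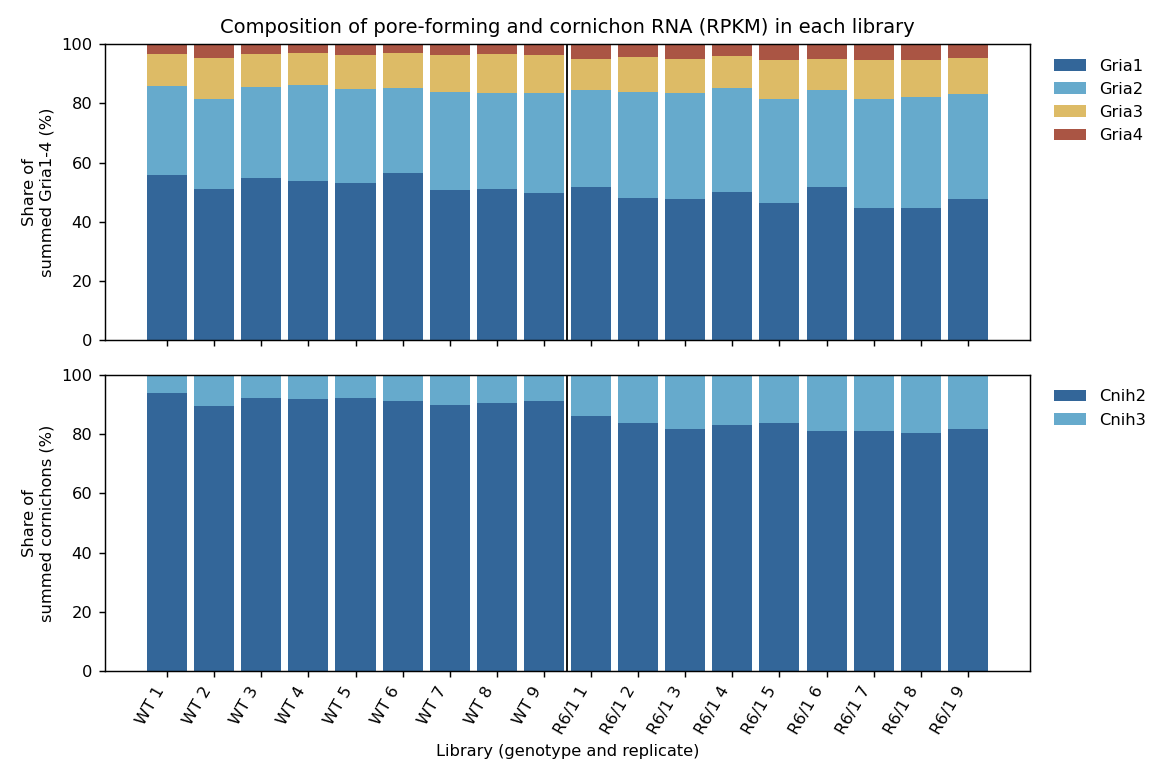
Share of each pore-forming subunit in the summed RPKM of Gria1 to Gria4 (top) and of Cnih2 and Cnih3 in their sum (bottom). There is 1 bar per library, with a line between the 9 WT and 9 R6/1 libraries. The Cnih3 share is 6.19% to 10.4% in WT and 13.97% to 19.6% in R6/1, and the Gria1 share is lower in R6/1 with overlap.

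Partner genes that bind, assemble, anchor or edit the receptor were counted next, 39 genes in 5 lists. Of these 25 fell, 5 rose and 9 were not called, against background shares of 23.5% and 24.8%, and their median log2 fold change was -0.26. Of the other auxiliary subunits 7 of 9 fell and 0 rose. The falls were those of Shisa6, Gsg1l, Shisa8, Syndig1, Shisa7, Prrt1 and Shisa9, from -0.69 for Shisa6 to -0.14 for Shisa9 on the log2 scale, and the remaining TARPs of the list, Cacng5 (-0.15, limma adjusted p 0.330) and Cacng7 (0.09, limma adjusted p 0.169), did not pass.

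Genes of receptor assembly and exit from the endoplasmic reticulum were called lower in 3 of 8 cases and higher in 2, against 23.5% and 24.8% of all tested genes. Porcn, whose product also acylates Wnt proteins, went from 23.3 ± 2.01 to 16.0 ± 1.52 RPKM without overlap, a fall by 0.53 on the log2 scale (limma, adjusted p 3.38e-07). Abhd6 and Cpt1c were the other genes called lower, and Sacm1l and Cnih1 were called higher by 0.13 and 0.10 on the log2 scale. The calls of Cpt1c and Cnih1 were each lost in 19 alternative fits and kept in 14. Frrs1l, an assembly factor whose loss depletes AMPA receptors, overlapped widely, at 46.2 to 80.1 RPKM in WT and 51.6 to 70.0 RPKM in R6/1 (log2 difference -0.09, limma adjusted p 0.452).

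Of the scaffold and trafficking genes 8 of 12 fell and 1 rose, against 23.5% lower and 24.8% higher among all tested genes. Dlg4, which encodes the postsynaptic scaffold PSD-95 that TARPs bind, ranged from 282 to 325 RPKM in WT and from 199.8 to 234 RPKM in R6/1, without overlap (log2 fold change -0.51, SE 0.038, limma adjusted p 1.68e-09). Its relative Dlg1, which encodes SAP97, a partner of GluA1, rose by 0.25 on the log2 scale (limma, adjusted p 0.00361), from 24.6 ± 3.16 to 29.3 ± 2.38 RPKM. Arc, an activity-regulated gene whose product takes part in AMPA receptor endocytosis, ranged from 29.9 to 91.4 RPKM in WT and from 11.5 to 36.3 RPKM in R6/1 (log2 fold change -1.52, SE 0.200, limma adjusted p 3.46e-06). Other activity-regulated genes varied between libraries too: 5 of 8 fell, with sums of 80.0 to 222 RPKM in WT and 67.5 to 164 RPKM in R6/1, and the counts of 8 members lower and 1 higher were the same with their mean as a covariate.

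Of the extracellular partners 5 of 7 fell and 1 rose, where 23.5% of all tested genes were lower and 24.8% higher. Nptx2, which encodes an activity-induced pentraxin that clusters AMPA receptors, fell from 10.0 ± 1.25 to 3.83 ± 0.905 RPKM without overlap (log2 fold change -1.30, limma adjusted p 4.29e-09). The noelins, secreted proteins that bind the receptor, went apart. Olfm1 ranged from 298 to 379 RPKM in WT and from 161 to 192 RPKM in R6/1 (log2 fold change -0.88, limma adjusted p 5.00e-11), whereas Olfm2 ranged from 16.8 to 39.5 RPKM in WT and from 39.8 to 57.0 RPKM in R6/1 (log2 fold change 0.95, limma adjusted p 2.85e-06). Neither noelin overlapped between genotypes.

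The RNA editing genes also split. Adarb1 encodes ADAR2, the enzyme that edits the Q/R site of Gria2, and went from 35.7 ± 5.70 to 25.5 ± 1.45 RPKM without overlap (log2 fold change -0.47, limma adjusted p 9.40e-06). Adar, which encodes ADAR1, rose by 0.19 on the log2 scale (limma, adjusted p 0.00402), from 31.6 ± 2.69 to 36.0 ± 2.55 RPKM. Adarb2, a family member without known editing activity, was the other gene called lower. Whether editing of Gria2 RNA differs was not analysed here. With the pan-neuronal covariate Porcn, Dlg4, Arc, Nptx2, Olfm1 and Adarb2 stayed lower and Cnih1 higher. Among the calls it ended were Olfm2 (log2 fold change 0.79, limma adjusted p 0.106), Adarb1 (-0.44, 0.101), Adar (0.35, 0.0684) and Dlg1 (0.23, 0.393). These fold changes kept their direction, and that of Adar was larger than without the covariate.

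Since the series maps lamin B1 domains, the positions of the members were compared with the domain lists (build mm9, NCBIM37). In WT 3 of the 4 pore-forming genes started inside a domain and 0 of the 6 auxiliary genes; over 12951 tested genes with a position the share was 13.1% in WT and 8.03% in R6/1. Gria3 (chromosome X, 38754031 to 39031778) and Gria4 (chromosome 9, 4417899 to 4796234) lay wholly inside a domain in both genotypes. Gria2 (chromosome 3, 80488858 to 80606713) lay wholly inside a WT domain from 79920001 to 82695000 that shared 0 Mb with R6/1 domains. In R6/1 the nearest domain was 1.91 Mb from the start of Gria2. That WT domain ranked 129 of 145 by the authors' score, so it is among the weaker of its list, and lists without replicates give no spread for its absence in R6/1.

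The remaining members lay outside the domains of both genotypes. Gria1 (chromosome 11, 56824889 to 57143746), Cacng3 (chromosome 7, 129815258 to 129912905) and Cacng4 (chromosome 11, 107593671 to 107655871) started 13.7 to 14.3 Mb from the nearest domain of either list. Cacng2 (chromosome 15, 77822178 to 77950458) and Cnih3 (chromosome 1, 183282759 to 183390772) started 5.65 and 4.65 Mb from the nearest WT domain. For Cacng8 (chromosome 7, 3394567 to 3415366) the nearest domain was 7.15 Mb away in WT and 1.67 Mb in R6/1, and for Cnih2 (chromosome 19, 5092871 to 5098418) 7.81 and 2.60 Mb. These R6/1 domains shared 0 Mb with WT domains and ranked 135 (Cacng8) and 159 (Cnih2) of 166 by the authors' score. Both are thus among the weaker of their list, and lists without replicates give no spread for their absence in WT. Of the members inside a WT domain, Gria2 and Gria3 were called lower and Gria4 was not called. Outside the domains of both lists, Cnih3 was called higher and the other members lower. A link between position and expression was not tested. Annotated genes on the other strand overlap Cacng2, Cacng4 and Cnih3, and annotated genes on the same strand overlap Gria2, Gria3 and Gria4; the counting of shared reads and the strand setting are not given in the sources used here.

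The Gria2 promoter is shown as that of the member whose domain differed between the lists, from chr3:80802836-80803085 of GRCm38.p6, minus strand, with 64.8% GC and 19 CpG dinucleotides.
Gria2: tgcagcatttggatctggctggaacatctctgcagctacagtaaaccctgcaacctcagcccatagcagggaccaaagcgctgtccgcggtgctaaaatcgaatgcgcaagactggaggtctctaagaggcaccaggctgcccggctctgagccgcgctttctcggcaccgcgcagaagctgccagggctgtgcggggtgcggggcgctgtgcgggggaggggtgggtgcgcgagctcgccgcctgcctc
None of the 5 motifs above matched in this window.

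Genes that followed a member most closely from library to library were ranked by Pearson's r over the 18 libraries, after removing each genotype's mean, among the 13105 genes whose mean reached 1 RPKM. These values share libraries and depth scaling and are given as a description. Among the closest to Cacng3 were Mef2c (0.946) and Cux2 (0.93), transcription factor genes known from cortical projection neurons. For Gria1 the closest were Ptk2b (0.931), Orai2 (0.924) and Slc24a3 (0.921), and among the closest to Cacng8 were St6galnac5 (0.855) and Bsdc1 (0.833).

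Cnih2 followed Chst1 (0.912), Tor1a (0.843) and Lrrc10b (0.842), and Cnih3 followed Sept3 (0.912), Fam49b (0.864) and Rgs7 (0.835). Kif21a headed the list for both Gria3 (0.887) and Cacng2 (0.821), followed by Ralgapa1 (0.855) and Cacnb4 (0.85) for Gria3 and by Eif4g3 (0.814) and Asxl3 (0.812) for Cacng2. Gria2 was closest to Itga8 (0.862), Arfgef1 (0.837) and Cir1 (0.822), and Gria4 to Unc13c (0.853), Tox (0.838) and Rnf144b (0.832). The lowest first value was that of Cacng4, with Cope (0.756), Akr7a5 (0.75) and Faap100 (0.74), on the fewest reads of the members.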

How the data were processed

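Stranded mRNA libraries were prepared from 9 independent samples per genotype, per the labels' protocols. TopHat, DESeq2 and build mm9 are named for them, and Bowtie and mm9 for the ChIP-seq, per the submitters' processing notes; the counter, the annotation, the gene lengths and the EDD settings are not given in the sources used here. The authors deposited RPKM values for 24508 symbols. The authors' deposited table gives, per gene, a mean normalized signal, a log2 fold change, scores (its standard error and test statistic) and p-values. The deposited domain lists carry 1 score per domain. The steps of the RPKM values gave whole reads for 99.84% to 99.89% of values under 1000 reads, within 0.05 of a read, with depth scaled by size factors; 0 per-sample columns were unused.

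Genes were tested with limma 3.58.1 (lmFit, eBayes with trend) on log2(RPKM + 0.5), with Benjamini-Hochberg adjustment over all 14446 genes and a threshold of 0.05; folds on this scale understate changes of low genes. Ratios were tested by exact permutation. Scripts were tested on simulated data. Intervals are at 95%. The members, ratios, partner lists and marker lists were chosen with earlier results of these data known; the pan-neuronal and activity-regulated lists were added after the data were seen. Named are all members, the 3 largest increases and decreases among called partners, Arc, Dlg4, Adarb1 and Frrs1l, and the 3 genes most like each member, some of which are not reported here; the other partners were named after their values were seen. Alternatives were other pseudocounts, filters, scalings and covariates, voom, library weights, a replicate block and leaving out each library. ATAC-seq and ChIP reads were not analysed here.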

Additional observations from a re-analysis of the deposited data

Results flagged for a closer look

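In WT replicate 2 the log2 ratio of Gria2 to Gria4 was 2.66, below the next WT library at 3.10, a gap that stands apart from the rest of its group by Dixon's ratio. That library has the highest Gria4 value of all 18, at 14.6 RPKM. Without it the log2 difference of this ratio between genotypes was -0.39 (exact permutation adjusted p 0.000206) against -0.33 with it. It was the only 1 of 40 groups of 9 libraries examined, where chance flags about 1 in 20.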

How the results depend on the processing

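The counts of 8 members lower and 1 higher were the same under every alternative run except the pan-neuronal covariate, which left 4 members lower and 0 higher. The ratios were recomputed only with pseudocounts of 0 and 1, with the replicate block and without each library, and 8 differed each time. With that covariate 6 partner genes were lower and 1 higher, and the log2 fold changes of Prrt1 and Dlg2 turned to 0.01671 and 0.02413, neither past the threshold; the cause was not tested. Under scaling by the total reads of each library 9 partner genes were higher in place of 5, while over all genes 5110 were higher and 2526 lower in place of 3586 and 3394. Leaving out each library in turn gave 8 members lower and 1 higher each time, 23 to 25 partners lower and 4 to 6 higher, and 8 ratios. Outside the pan-neuronal covariate 29 of the 39 partner genes kept their call under all alternatives; Cacng7, Shisa8, Shisa9, Prrt1, Cpt1c, Abhd12, Cnih1, Dlg3, Pick1 and Lrrtm2 did not. The labels give both genotypes the same replicate numbers. Same-numbered libraries deviated together with correlations from -0.0533 to 0.237, over 0.1 in 3 of 9 pairs, and 2 of 9 correlated best with their own number. Such correlations cannot decide whether same-numbered libraries share more than a number. With the replicate number as a block 8 members were lower and 1 higher, 24 partners lower and 5 higher, and 8 ratios differed. Among the members Cacng4 has the fewest reads, 59 to 119 per library, and among the partners Shisa8, 8 to 51 per library, whose call was lost in 16 alternative fits and kept in 16.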

Other observations

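Within genotypes the members did not vary as a block. Over the 18 libraries, with each genotype's mean removed, Pearson's r was 0.776 between Gria1 and Cacng8, 0.727 between Cacng8 and Cnih2 and 0.656 between Gria3 and Cacng2. It was -0.614 between Gria1 and Cacng3 and -0.693 between Gria4 and Cnih2. These correlations are a description over libraries that share depth scaling, and no test was made of them.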
